A study of Mus musculus with 23 samples.

Results

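Genes that define the fibroblasts of the lung were followed through OVA-induced allergic airway disease (AAD) in offspring of PM2.5-exposed and control dams. They were the 10 rows of the expression table, out of 35322, whose symbols are Pdgfra, Pdgfrb, Tcf21, Dcn, Lum, Inmt, Npnt, Wnt2, Fgf10 and Postn. All 10 were present, and all 10 passed the filter on low values (4 or more of the 23 libraries at 0.5 RPM or above) that left 16795 genes for testing. RNA-Seq was performed on lung tissue of Balb/c female offspring at 13 weeks of age, with no genetic modification named in the labels. Sham offspring (n = 7) were born to unexposed dams and received the control challenge, and PM offspring (n = 7) were born to dams exposed to PM2.5 and received the same control. Sham-OVA (n = 5) and PM-OVA (n = 4) offspring had the same maternal histories and were challenged with ovalbumin (OVA) to induce AAD. The control is PBS in the labels and nebulised saline in the study's methods, and the tissue is abbreviated RML in the labels and described as the right lower lobe in the methods. Below, Sham-OVA against Sham is called the Sham cohort and PM-OVA against PM the PM cohort. The labels number the samples within a group and do not tie them to litters, so the p-values below measure the spread between these samples.

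Fibroblasts of the lung interstitium lay down the matrix of the alveolar wall and the airway, and supply the growth factors that keep the epithelium in repair. The platelet-derived growth factor receptor Pdgfra marks interstitial fibroblasts, and its relative Pdgfrb marks pericytes as well. Tcf21 is a transcription factor of the embryonic lung mesenchyme, Fgf10 and Wnt2 are signals sent from mesenchyme to epithelium, and Npnt, Postn, Dcn and Lum encode matrix proteins. Inmt encodes an indolethylamine N-methyltransferase that is abundant in lung. Whole tissue was sequenced. A lower share of fibroblasts, less transcript in each fibroblast and a change in other cells that make it therefore cannot be told apart.

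The start regions of 3 of these genes are shown. They cover the gene with the lowest Sham-OVA against Sham log2 fold change of the 10 (Npnt) and the one with the highest level (Inmt). The third is Postn, whose fold change moved towards 0 after a joint correction for length and GC. The sequences are RefSeq promoter windows of GRCm38.p6, from 250 bases before to 50 bases after the start, and come from the reference strain, not from the Balb/c animals studied. For 7 of the 10 genes a window was matched by symbol. Pdgfrb, Dcn and Lum had no entry. Capitals mark TATAAA in Postn and Inmt and GGGCGG, the GC box, in Npnt, each on either strand.
Npnt, chr3:132950242-132950541, reverse strand: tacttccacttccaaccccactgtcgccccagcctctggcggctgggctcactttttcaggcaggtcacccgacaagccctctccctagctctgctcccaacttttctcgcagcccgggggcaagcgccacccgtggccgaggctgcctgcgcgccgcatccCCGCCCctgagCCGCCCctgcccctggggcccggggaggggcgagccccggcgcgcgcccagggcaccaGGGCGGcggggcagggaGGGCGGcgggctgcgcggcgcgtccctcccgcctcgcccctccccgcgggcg
Inmt, chr6:55174941-55175240, reverse strand: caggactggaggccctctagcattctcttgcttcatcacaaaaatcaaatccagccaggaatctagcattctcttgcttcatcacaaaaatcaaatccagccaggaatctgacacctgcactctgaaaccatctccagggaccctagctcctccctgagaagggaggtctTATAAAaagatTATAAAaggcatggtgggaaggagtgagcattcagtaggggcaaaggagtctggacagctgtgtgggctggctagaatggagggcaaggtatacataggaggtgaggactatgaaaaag
Postn, chr3:54360857-54361156, forward strand: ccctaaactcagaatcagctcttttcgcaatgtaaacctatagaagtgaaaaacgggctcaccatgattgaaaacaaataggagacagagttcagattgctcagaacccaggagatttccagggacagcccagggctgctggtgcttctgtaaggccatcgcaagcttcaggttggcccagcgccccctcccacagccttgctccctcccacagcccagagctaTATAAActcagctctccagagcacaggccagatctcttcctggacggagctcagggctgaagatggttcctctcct
The Npnt window was 76.7% G or C with 32 CpG dinucleotides, against a median of 7 CpG over all 32851 windows, and held 4 GC boxes and no TATAAA. The Inmt window was 47.7% G or C and held 0 CpG and 2 copies of TATAAA upstream of the start. The Postn window, at 53% G or C, had 5 CpG and 1 TATAAA (position -26 from the start). TATAAA occurred in 13.6% and GGGCGG in 35.7% of all windows. The AP-1 motif TGANTCA (7.81% of all windows) and the STAT6 motif (6.95%) were searched on both strands and matched in none of the 9 windows of the 7 genes. CCAAT (37.4%) matched in 1 Wnt2 and 1 Postn window, and the E-box CANNTG (72.3%) matched in the Pdgfra and Inmt windows, in a Npnt window that is not shown, and in the Fgf10 window, which lies 44908 bases from the start of that gene in GENCODE. These matches describe letters in a window and are not evidence of factor binding.

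Values are in RPM, a gene's reads scaled to the total of its library, with no correction for transcript length. The saline libraries held 13089691 to 17393579 reads on genes. Depth was lower after challenge, from 2298645 to 12185451 reads in Sham-OVA and from 4324326 to 12355561 reads in PM-OVA. Sham-OVA replicate 3 (2298645 reads) and, in PM-OVA, replicates 3 (5922469 reads) and 4 (4324326 reads) were the 3 shallowest libraries, and the others held 10345173 reads or more. Long transcripts read lower in the challenged libraries. The slope of a library's deviation against the length of the transcript, in log2 units per 10-fold length, was -0.41 to 0.33 in the saline libraries, -1.67 to -1.25 in Sham-OVA and -1.67 to -0.73 in PM-OVA. The median log2 fold change of all genes was -0.48 in the Sham cohort and -0.43 in the PM cohort. Median-of-ratios scaling moved these medians to -0.17 and -0.13. The fold changes of the 10 genes are therefore also given after the trend with length and GC content was removed from each library, as are those of other named genes where this changed the call. Of the 16795 genes, 3453 were higher and 7978 lower in Sham-OVA, and 3379 higher and 7589 lower in PM-OVA. Under TMM scaling the split was 4874 to 6438 and 4920 to 5942, and under quantile normalisation it was 5484 to 5812 and 5288 to 5445. The lung markers Sftpc (surfactant protein C), Ager (alveolar type 1 cells) and Pecam1 (endothelium) were present in every library, with lowest values of 6490, 1242 and 459 RPM.

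In Sham offspring the level per kilobase of merged GENCODE exons spanned a wide range. Inmt was the most abundant at 1998 ± 412 RPM per kb (SD, n = 7), followed by Npnt at 220 ± 34.2 and Tcf21 at 73.0 ± 12.4 RPM per kb. Pdgfra stood at 56.3 ± 10.5, Pdgfrb at 32.6 ± 3.86 and Postn at 28.2 ± 3.04 RPM per kb. Dcn (18.5 ± 5.85), Wnt2 (16.5 ± 5.09), Fgf10 (7.61 ± 1.07) and Lum (4.63 ± 0.91 RPM per kb) were the lowest. The ranges of neighbours in this order did not overlap between Inmt and Npnt, Npnt and Tcf21, Wnt2 and Fgf10, or Fgf10 and Lum, and overlapped between the remaining neighbours. PM offspring had the same order except that Wnt2 (16.1) stood above Dcn (14.6 RPM per kb), with overlapping ranges. After challenge Npnt was at 36.4 ± 15.5 (n = 5) in Sham-OVA and 59.2 ± 58.8 RPM per kb (n = 4) in PM-OVA, and its range overlapped that of Tcf21 (31.1 ± 15.3 and 33.4 ± 19.0 RPM per kb) in both.

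**Figure D1:**
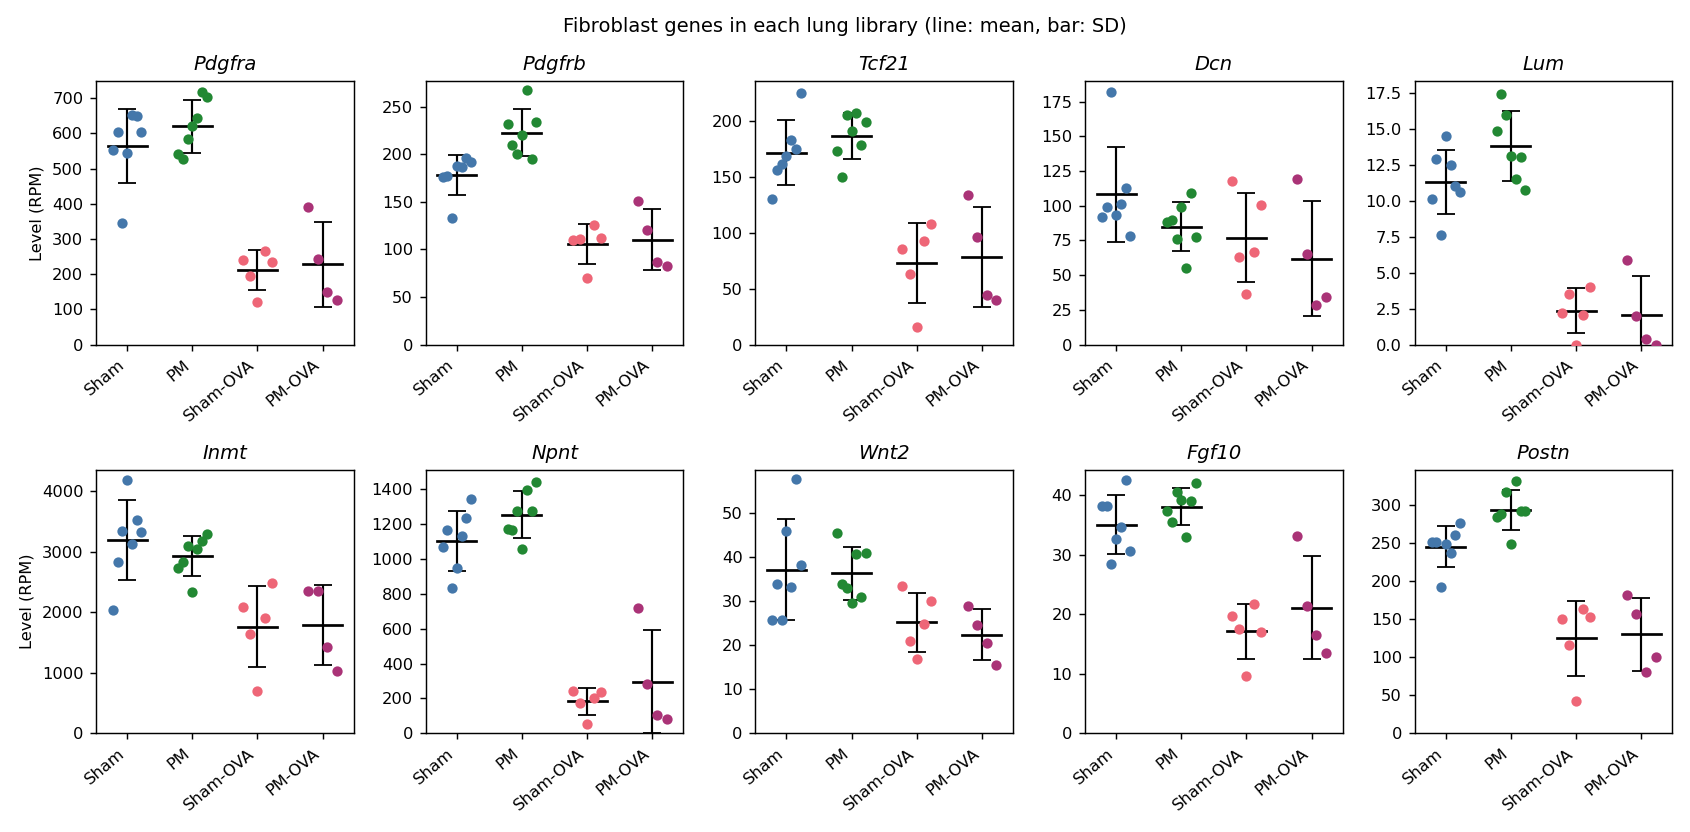
Level of each fibroblast gene (RPM, linear axis from 0) in each library of the 4 groups, with 1 point per library, a line at the mean and a bar of 1 SD, cut at 0 where it would go below. Npnt, Lum, Pdgfra, Pdgfrb, Tcf21 and Postn lie lower in all 9 challenged libraries than in any saline library of the same maternal group, whereas Dcn overlaps between the groups.

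Most of the fibroblast genes were lower in the OVA-challenged libraries, in both maternal groups. With limma at an adjusted p under 0.05, 9 of the 10 were lower in Sham-OVA than in Sham and 0 were higher, and the exception was Dcn. Among all genes tested, 47.5% were lower and 20.6% were higher in that comparison. In PM-OVA against PM the same 9 genes were lower and 0 higher, against 45.2% and 20.1% of all genes. Dcn did not pass the test in either. The median log2 fold change of the 10 genes was -1.08 in the Sham cohort and -1.14 in the PM cohort (-0.71 and -0.78 under median-of-ratios scaling), and each of the 10 lay below the median of all genes in both comparisons. In Sham-OVA, 7 of the 10 were lower in every challenged library than in every saline library, as were 35.0% of all genes. In PM-OVA 7 of the 10 were separated in this way, as were 28.6% of all genes. At the threshold used by the study (adjusted p under 0.000001 with an absolute log2 fold change above 1), limma called 0 of the 10 in both cohorts, where 2.53% and 0.0238% of all genes were called lower. At an unadjusted p under 0.05, 9 of the 10 passed by limma in each cohort, as did 11902 and 11559 of the 16795 genes in either direction. DESeq2 on the recovered reads, the test used in the study, was also applied at the study's threshold. It called 3 of the 10 in the Sham cohort, with 15.0% of all genes lower, and 1 in the PM cohort, with 6.45%. The 3 were Npnt (-2.31, adjusted p = 3.61e-25), Pdgfra (-1.08, adjusted p = 4.65e-11) and Lum (-1.82, adjusted p = 9.22e-11), and the 1 was Pdgfra (-1.14, adjusted p = 3.80e-08). At an adjusted p under 0.05, DESeq2 and edgeR called 8 and 7 of the 10 in both cohorts. Of all 16795 genes, DESeq2 called 11754 in the Sham cohort and 10910 in the PM cohort (6392 and 5587 lower). For edgeR these counts were 11253 and 10215 (5669 and 5095 lower).

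Npnt encodes nephronectin, a basement membrane ligand of the integrin made with the Itga8 subunit, and had the lowest fold change of the 10 in Sham-OVA. It ranged from 835 to 1344 RPM in Sham (median 1133). The 5 Sham-OVA libraries held 246, 176, 53.8, 201 and 239 RPM. All 5 were far below the lowest Sham value. The difference was -2.75 on the log2 scale (SE 0.31, adjusted p = 2.97e-06, limma), a 6.04-fold lower mean. In PM offspring Npnt ranged from 1060 to 1441 RPM (median 1274), and the 4 PM-OVA libraries held 719, 285, 103 and 81.7 RPM. The groups did not overlap, but the PM-OVA libraries spread far more than those of any other group. The log2 fold change was -2.61 (SE 0.45, adjusted p = 0.000424). Without PM-OVA replicates 3 and 4, among the shallowest libraries, it was -1.46 (adjusted p = 0.00141).

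Lum encodes lumican, a leucine-rich proteoglycan that binds collagen fibrils. In Sham it ranged from 7.64 to 14.5 RPM (median 11.04), with at least 132 reads in each library. The Sham-OVA libraries held 2.22, 3.54, 0, 2.07 and 4.02 RPM. The 0 came from replicate 3, the shallowest library, where a count of 3 reads would be 0.932 RPM, still below the Sham range. Its log2 fold change was -2.34 (SE 0.43, adjusted p = 0.000233), and by -1.79 without that library. In PM it ranged from 10.8 to 17.4 RPM (median 13.1), against 5.91, 2.01, 0.398 and 0 RPM in PM-OVA. The 4 challenged libraries were all below the saline ones, and the 0 was in replicate 4, where 3 reads would be 0.545 RPM. The log2 fold change was -3.11 (SE 0.52, adjusted p = 0.00035), and it was -1.82 without PM-OVA replicates 3 and 4.

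Dcn encodes decorin, the proteoglycan most like lumican among these genes, and lies next to Lum on chromosome 10 (Dcn at 97479609-97518143 and Lum at 97565128-97572703, GRCm38, both on the forward strand). Dcn ranged from 77.9 to 182 RPM in Sham (median 99.0), and the Sham-OVA libraries held 118, 63.0, 36.7, 66.9 and 100.2 RPM. These groups overlapped, and the log2 fold change of -0.55 (SE 0.26, adjusted p = 0.0757) did not pass. The PM range was 55.0 to 109 RPM (median 88.5), and PM-OVA held 120, 65.2, 28.7 and 34.5 RPM. One PM-OVA library was therefore above every PM library and another pair below every one, and the log2 fold change was -0.65 (SE 0.33, adjusted p = 0.0944). The call depended on single libraries and their weight. Dcn passed without Sham-OVA replicate 1 (-0.73, adjusted p = 0.0218), without Sham-OVA replicate 5 (-0.67, adjusted p = 0.0461) and without PM-OVA replicate 1 (-1.04, adjusted p = 0.00208). It also passed with array weights, which lower the influence of libraries that scatter (-0.38, adjusted p = 0.0337, in the Sham cohort and -1.31, adjusted p = 0.000281, in the PM cohort). Without PM-OVA replicates 3 and 4 it was 0.08 (adjusted p = 0.796), of the opposite sign. With the length and GC trend removed the fold changes of Dcn were 0.03 and -0.04.

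**Figure D2:**
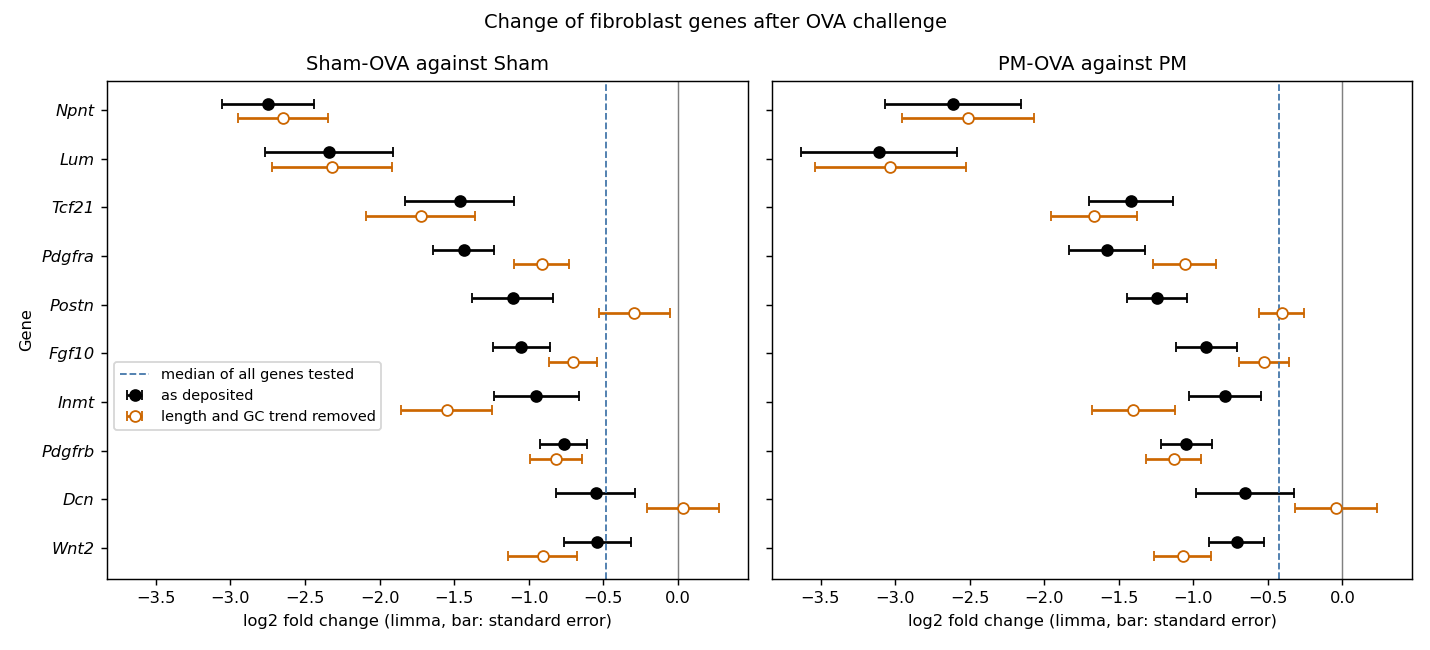
Fold change of the 10 fibroblast genes (log2 of RPM + 0.5, limma) for Sham-OVA against Sham and PM-OVA against PM, as deposited (filled) and after removal of the length and GC trend (open), where bars are 1 standard error. The dashed line is the median of all genes tested as deposited (-0.48 and -0.43). Npnt and Lum stay below -2 on both scales, whereas Postn and Dcn move towards 0 when the trend is removed.

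Tcf21 and both PDGF receptors were lower after challenge. Tcf21 ranged from 130 to 225 RPM in Sham (median 169), against 85.7, 63.5, 15.5, 92.7 and 108 RPM in Sham-OVA. Every Sham-OVA library was below every Sham library, with a log2 fold change of -1.46 (SE 0.37, adjusted p = 0.00258). Replicate 3 was far below the other Sham-OVA libraries, and the fold change without it was -0.98. In PM, Tcf21 ranged from 150 to 207 RPM (median 191), and PM-OVA held 133, 96.1, 44.5 and 39.8 RPM. The groups did not overlap (log2 fold change -1.42, SE 0.28, adjusted p = 0.000931), and the value without PM-OVA replicates 3 and 4 was -0.71 (adjusted p = 0.00268).

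Pdgfra ranged from 346 to 652 RPM in Sham (median 603), against 239, 196, 122, 267 and 234 RPM in Sham-OVA. The groups were separated, and the log2 fold change was -1.44 (SE 0.21, adjusted p = 2.93e-05). In PM it ranged from 526 to 718 RPM (median 620), against 391, 243, 150 and 127 RPM in PM-OVA. The fold change of -1.58 (SE 0.26, adjusted p = 0.000287) became -0.998 without PM-OVA replicates 3 and 4. Pdgfrb moved less. It ranged from 133 to 196 RPM in Sham (median 186), with 110, 111, 70.2, 126 and 112 RPM in Sham-OVA (log2 fold change -0.77, SE 0.16, adjusted p = 0.000544). The PM range was 195 to 267 RPM (median 220), and PM-OVA held 151, 120, 86.7 and 83.0 RPM (log2 fold change -1.05, SE 0.17, adjusted p = 0.000281). Neither pair of groups overlapped for Pdgfrb.

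The merged exons of Pdgfra (10024 bases) are longer than those of Pdgfrb (5478 bases), and the receptors also differ in GC content (48.1% and 54.9%). Their fold changes came together when the trend with length and GC was removed. They were then -0.91 for Pdgfra and -0.82 for Pdgfrb in Sham-OVA, and -1.06 and -1.13 in PM-OVA. The ratio of the receptors within a library behaved likewise. As deposited, the log2 ratio of Pdgfra to Pdgfrb was 1.64 ± 0.15 in Sham and 0.97 ± 0.16 in Sham-OVA, with all 5 Sham-OVA libraries below all Sham libraries (difference -0.67, two-sided exact permutation p = 0.00126, the smallest this design gives, adjusted p = 0.0152 over 12 ratio tests). It was 1.47 ± 0.23 in PM and 0.94 ± 0.33 in PM-OVA (difference -0.53, exact permutation adjusted p = 0.0455), lower than every PM library in 3 of 4, and its adjusted p exceeded 0.05 when any 1 of 8 of the 11 libraries was left out. With the trend removed the difference was -0.10 (exact permutation adjusted p = 0.394) in Sham-OVA and 0.07 (adjusted p = 0.673, exact permutation) in PM-OVA, so that the direction turned in the latter.

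**Figure D3:**
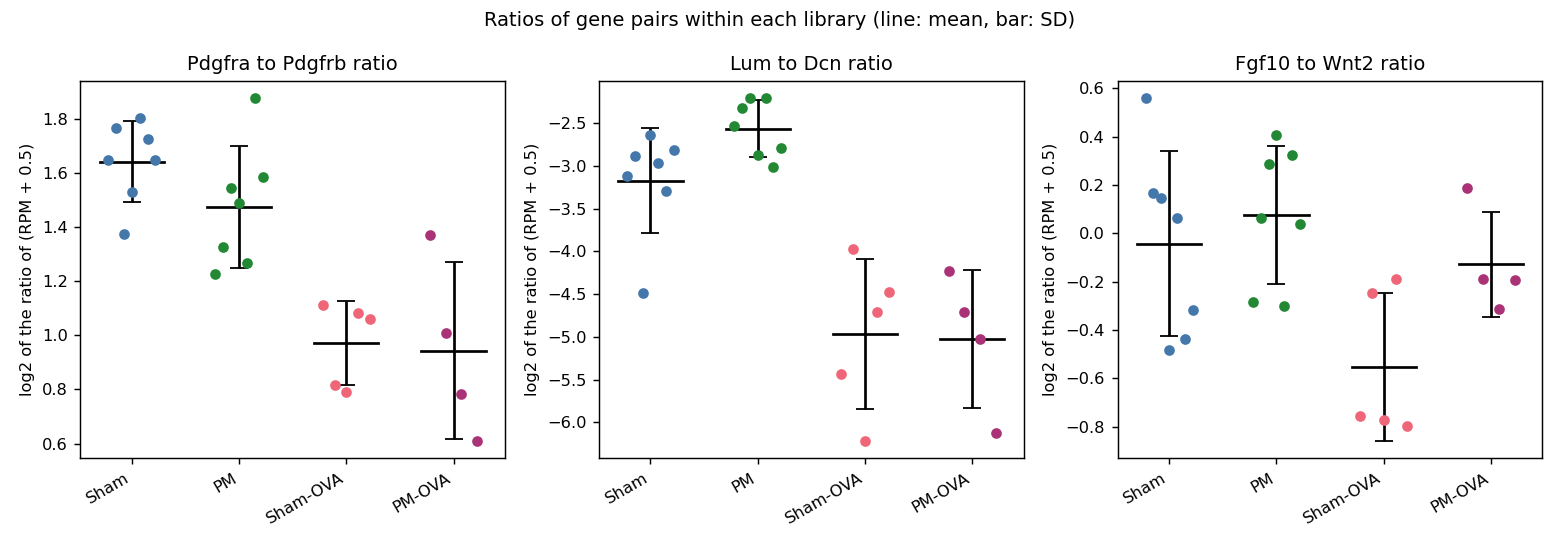
Log2 of the ratio of 2 genes, each as RPM + 0.5, within each library, with 1 point per library, a line at the mean and a bar of 1 SD. The Pdgfra to Pdgfrb ratio was 1.64 ± 0.15 in Sham and 0.97 ± 0.16 in Sham-OVA, and the Lum to Dcn ratio lay between -6.22 and -3.98 in the 9 challenged libraries, where Sham replicate 3, at -4.48, is the only saline library.

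Lum and Dcn behaved differently. The log2 ratio of Lum to Dcn was -3.17 ± 0.62 in Sham and -4.96 ± 0.88 in Sham-OVA, a difference of -1.79 (exact permutation p = 0.00379, adjusted p = 0.0152). It was -2.57 ± 0.33 in PM and -5.02 ± 0.81 in PM-OVA, a difference of -2.46 with all 4 challenged libraries below all 7 saline ones (exact permutation p = 0.00303, the smallest this design gives, adjusted p = 0.0152). With the trend removed the differences were -2.35 and -2.99 (exact permutation adjusted p = 0.0152 and 0.0182).

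The mesenchymal signals Fgf10 and Wnt2 were at low levels. Fgf10 is the ligand of the epithelial receptor Fgfr2. It ranged from 28.4 to 42.6 RPM in Sham (median 34.7), against 19.7, 17.5, 9.63, 21.8 and 17.0 RPM in Sham-OVA, without overlap. The log2 fold change was -1.05 (SE 0.19, adjusted p = 0.000214). In PM it ranged from 33.0 to 42.0 RPM (median 39.0), against 33.1, 21.4, 16.5 and 13.4 RPM in PM-OVA, of which the first lay just inside the PM range. The log2 fold change was -0.91 (SE 0.20, adjusted p = 0.00185) and fell to -0.50 without PM-OVA replicates 3 and 4 (adjusted p = 0.0173). With these replicates left out and the trend removed it was -0.23 and no longer passed (adjusted p = 0.187).

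Wnt2 encodes a WNT ligand of the lung mesenchyme. It ranged from 25.6 to 57.8 RPM in Sham (median 33.9), against 33.6, 20.9, 16.8, 24.9 and 29.9 RPM in Sham-OVA, and the groups overlapped. At -0.54 (SE 0.22, adjusted p = 0.0449) the log2 fold change was within 0.1 of the median of all genes and was the call nearest the threshold. It was lost when any 1 of 8 of the 12 libraries was left out: Sham replicates 2, 4, 5, 6 and 7 (-0.43 to -0.56, adjusted p from 0.0572 to 0.0901), and Sham-OVA replicates 2 (-0.48, adjusted p = 0.101), 3 (-0.41, adjusted p = 0.0756) and 4 (-0.54, adjusted p = 0.0687). TMM scaling (-0.19, adjusted p = 0.39) and DESeq2 (-0.21, adjusted p = 0.361) also ended it, whereas with the length and GC trend removed it was -0.91 (adjusted p = 0.00317). In PM it ranged from 29.5 to 45.5 RPM (median 33.9), and PM-OVA held 29.0, 24.5, 20.6 and 15.4 RPM, all below the PM range. The fold change there was -0.71 (SE 0.18, adjusted p = 0.00484), -0.42 without PM-OVA replicates 3 and 4 (adjusted p = 0.0515) and -0.34 under TMM scaling (adjusted p = 0.0571). The log2 ratio of Fgf10 to Wnt2 was -0.04 in Sham and -0.55 in Sham-OVA (difference -0.51, exact permutation adjusted p = 0.0657), and the difference in PM-OVA was -0.20. With the trend removed the PM-OVA difference was 0.54 (exact permutation adjusted p = 0.0242), of the opposite sign.

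The fold changes of Postn and Inmt differed in size with and without the length and GC trend. Length and GC were removed together, and the part of each alone was not tested. Postn encodes periostin, a matricellular protein used as a marker of type 2 airway inflammation in people. It ranged from 192 to 277 RPM in Sham (median 251), against 151, 116, 42.3, 163 and 153 RPM in Sham-OVA. No library overlapped, and the direction was lower (log2 fold change -1.11, SE 0.27, adjusted p = 0.00229). In PM it ranged from 249 to 332 RPM (median 292), against 182, 157, 80.9 and 99.9 RPM in PM-OVA (log2 fold change -1.24, SE 0.20, adjusted p = 0.000272). The merged exons of Postn are 8.70 kb long and 36.3% G or C. With the trend removed the fold change was -0.29 in Sham-OVA (adjusted p = 0.297) and -0.41 in PM-OVA (adjusted p = 0.0299), and it was 0.0013 and -0.13 without the 3 shallowest libraries as well (adjusted p = 0.994 and 0.400). Without those libraries and with no trend removed, Postn was lower by log2 fold changes of -0.76 and -0.79.

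Inmt, with 1.60 kb of merged exons in all, was lower by more with the trend removed. It ranged from 2037 to 4180 RPM in Sham (median 3332), and Sham-OVA held 2088, 1641, 695, 1906 and 2475 RPM. Of these, 3 were below the Sham range. The log2 fold change was -0.95 (SE 0.29, adjusted p = 0.00883) as deposited and -1.55 (adjusted p = 0.000519) with the trend removed. It was -0.58 (adjusted p = 0.0353) under median-of-ratios scaling, and by edgeR it did not pass (-0.46, adjusted p = 0.0627). The PM range was 2336 to 3295 RPM (median 3044), and PM-OVA held 2353, 2346, 1418 and 1034 RPM, of which 2 were below it. The log2 fold change was -0.79 (SE 0.24, adjusted p = 0.0122) and -1.40 (adjusted p = 0.0012) with the trend removed. It did not pass without PM-OVA replicate 4 (-0.55, adjusted p = 0.0508), without replicates 3 and 4 (-0.31, adjusted p = 0.278), under TMM scaling (-0.41, adjusted p = 0.0824), under median-of-ratios scaling (-0.42, adjusted p = 0.0718) or by edgeR (-0.39, adjusted p = 0.078).

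With the trend removed, 8 of the 10 genes were lower in Sham-OVA and 9 in PM-OVA, against 45.8% and 44.0% of all genes. Npnt was then at -2.65 and -2.51, Lum at -2.32 and -3.03, and Tcf21 at -1.72 and -1.67 in the Sham and PM cohorts. The values were -0.71 and -0.53 for Fgf10, and -1.07 for Wnt2 in the PM cohort. Without the 3 shallowest libraries, 8 and 7 of the 10 passed, where 7925 and 5258 of the 16795 genes were called lower. The libraries that stood at the ends were the same for most genes. Sham-OVA replicate 3, with the lowest read total of the series and a length slope of -1.67, held the lowest Sham-OVA value of all 10 genes. PM-OVA replicate 1, with the highest read total of its group and a length slope of -0.73, held the highest PM-OVA value of all 10, and PM-OVA replicate 4 held the lowest of 8. The part of read depth in these levels was not tested.

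Maternal exposure alone gave no difference that passed for any of the 10 genes. In PM against Sham limma called 0 of 10 (0.00% of all genes), and 2 of the 10 had an unadjusted p under 0.05, as did 731 of the 16795 genes. DESeq2 and edgeR also called 0, with 3 of the 10 under that unadjusted p, as were 843 and 783 of all genes. The 2 genes were Pdgfrb and Postn. Pdgfrb was at 178 ± 21.1 RPM in Sham and 222 ± 24.6 in PM (log2 fold change 0.32, SE 0.09, limma adjusted p = 0.898), with 6 of 7 PM libraries above every Sham library. Postn was at 246 ± 26.4 RPM in Sham and 293 ± 26.3 in PM (log2 fold change 0.26, SE 0.08, limma adjusted p = 0.898), also with 6 of 7 above. The remaining log2 fold changes ran from -0.33 for Dcn (95% interval -0.69 to 0.03) to 0.28 for Lum (-0.01 to 0.57). The log2 ratio of Lum to Dcn was higher in PM by 0.61 (exact permutation p = 0.0204, adjusted p = 0.0490), with 4 of 7 PM libraries above all Sham libraries. It was 0.39 without Sham replicate 3 (exact permutation adjusted p = 0.0965), the library with the highest Dcn and the lowest Lum of its group, and its adjusted p exceeded 0.05 when any 1 of 11 of the 14 libraries was left out.

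After challenge PM-OVA and Sham-OVA did not differ for any of the 10 genes by limma (0.00% of all genes), DESeq2 or edgeR, and 0 of the 10 had an unadjusted p under 0.05, against 313 of all genes. Log2 fold changes ran from -0.49 for Lum (95% interval -2.37 to 1.39) to 0.33 for Npnt (-1.17 to 1.83). The interaction of maternal exposure with challenge was called for 0 of the 10 by limma (0.00% of all genes), DESeq2 and edgeR, with 0 of 10 against 854 of all genes under an unadjusted p of 0.05. The lowest estimate was that of Lum (-0.77, 95% interval -2.23 to 0.70), and the narrowest interval was that of Pdgfrb (-0.28, -0.75 to 0.19). These intervals do not exclude differences of over 1 log2 unit for Lum, Npnt, Tcf21 and Dcn. With array weights the interaction was called for 6 of the 10 (Postn, Npnt, Tcf21, Dcn, Lum and Pdgfrb, each with a more negative challenge effect in PM offspring) and for 4616 of all genes. For Npnt and Tcf21 this sign was opposite to that of the main fit (0.14 and 0.05). Without the 3 shallowest libraries the interaction was called for 0 of the 10 and 721 of all genes. With the trend also removed it was called for 0 of the 10, and 2 of the 10 estimates were negative. Npnt was then at 0.86 (limma adjusted p = 0.0792).

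Other genes of the mesenchyme were taken from lists that do not contain the 10 genes. The lists are described by counts beside the shares of all genes given above. In the main fit these were 20.6% higher and 47.5% lower in the Sham cohort, and 20.1% and 45.2% in the PM cohort. Under median-of-ratios scaling 4903 of the 16795 genes were higher and 6407 lower in the Sham cohort, and 4862 and 6003 in the PM cohort. With the trend removed these counts were 3148 and 7699 in the Sham cohort, and 3049 and 7398 in the PM cohort. Of 10 alveolar fibroblast markers, 7 were lower in the Sham cohort and 6 in the PM cohort, with 0 higher in either and a median log2 fold change of -1.45 and -1.26. Fmo2, a flavin monooxygenase, was the lowest of them, at 1421 ± 307 RPM in Sham and 86.5 ± 42.6 in Sham-OVA (-4.27, SE 0.39, adjusted p = 5.42e-07), and Mfap4, a microfibril protein, was the highest at -0.22 (adjusted p = 0.456). After removal of the trend 10 and 9 of the 10 were lower, Mfap4 among them in the Sham cohort (-0.73, adjusted p = 0.0364). Of 7 peribronchial fibroblast markers, 6 were lower in Sham-OVA and 5 in PM-OVA, from Fgf18 at -2.59 (adjusted p = 8.62e-05) to Wnt5a at -0.23 (adjusted p = 0.251), and with the trend removed the counts were 5 and 3.

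Adventitial fibroblast markers, which mark the cuffs around vessels and airways, were split. Of 10, 3 were higher and 3 lower in each cohort. The collagen Col14a1 was at 37.8 ± 7.62 RPM in Sham and 102 ± 16.6 in Sham-OVA (log2 fold change 1.42, SE 0.16, adjusted p = 3.41e-06) and also rose in PM-OVA (1.11, adjusted p = 0.000146). Adh7 fell by 1.73 in Sham-OVA, from 3.36 RPM in Sham, and was at -0.73 (adjusted p = 0.205) in PM-OVA. The median of the list was 0.18 and -0.10, and -0.45 in both cohorts with the length and GC trend removed. Under median-of-ratios scaling 5 were higher and 3 lower in the Sham cohort, and 4 and 2 in the PM cohort.

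**Figure D4:**
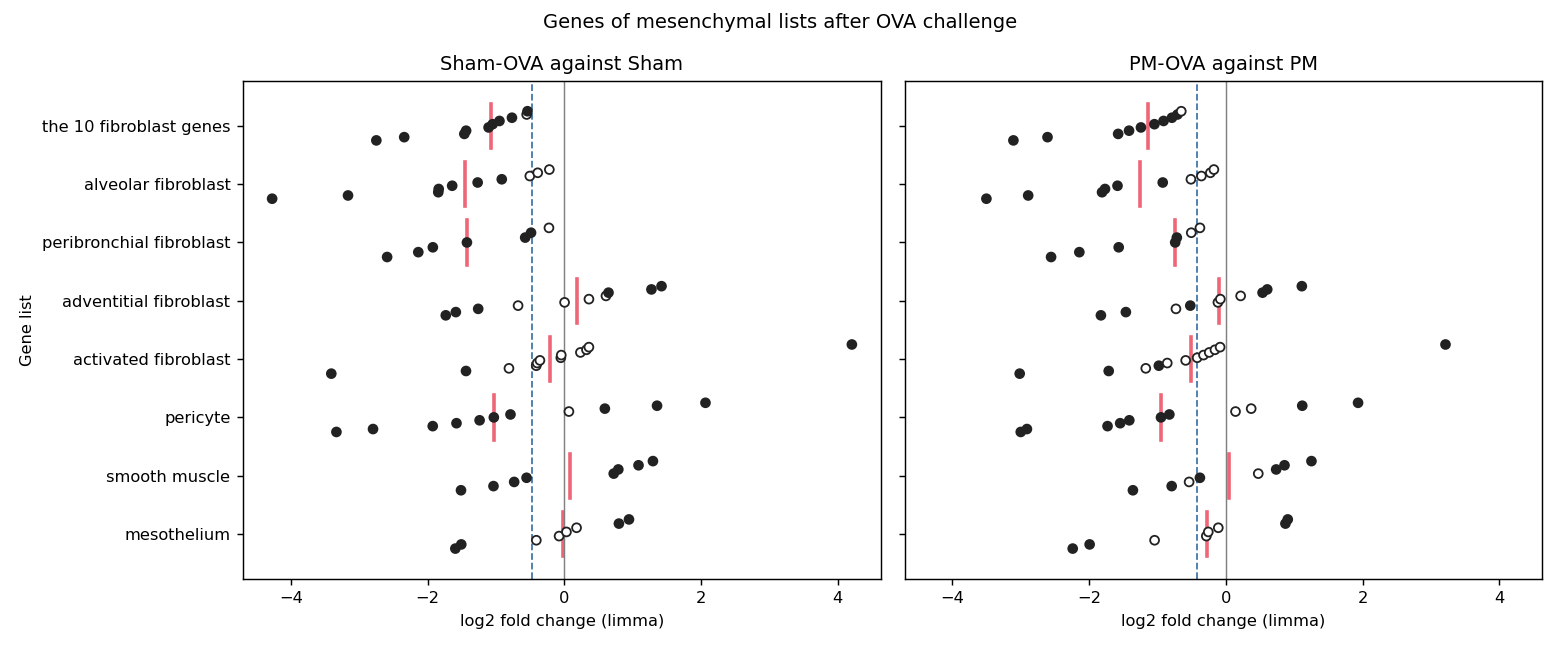
Fold change (log2 of RPM + 0.5, limma) of each gene of 8 mesenchymal lists for Sham-OVA against Sham and PM-OVA against PM, where filled points passed an adjusted p of 0.05, open points did not, the short line is the median of a list and the dashed line the median of all genes (-0.48 and -0.43). All 10 fibroblast genes and all 10 alveolar fibroblast markers lie left of 0, whereas adventitial fibroblast, pericyte and smooth muscle markers lie on both sides.

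Of 12 genes of activated, matrix-forming fibroblasts, 1 was higher in each cohort, Timp1, an inhibitor of metalloproteinases that leukocytes also make (4.21, SE 0.29, adjusted p = 3.49e-08 in Sham-OVA). In Sham-OVA 2 were lower, with Col12a1 at -3.41 (adjusted p = 7.39e-05), and 3 in PM-OVA. The count of higher genes in the Sham cohort was 3 with the trend removed and 4 under median-of-ratios scaling. Pericyte markers included some of the largest differences in both directions. Of 11, 3 were higher and 7 lower in Sham-OVA, and 2 and 7 in PM-OVA, from Gucy1b1, a guanylate cyclase subunit, at -3.33 (adjusted p = 0.000193) to Rgs5, a regulator of G protein signalling, at 2.06 (adjusted p = 3.87e-07). Smooth muscle markers divided 4 and 4 in Sham-OVA and 3 and 3 of 8 in PM-OVA, with the myosin Myh11 at -1.51 and Tagln at 1.30 (adjusted p = 3.99e-05 and 4.83e-05). In the PM cohort this split was 0 higher and 3 lower with the trend removed, and 4 higher and 1 lower under median-of-ratios scaling. Mesothelial markers divided 2 and 2 of 8 in both cohorts, with Muc16 at -1.59 and Msln at 0.95 in Sham-OVA. Neither passed with the trend removed (Muc16 at -0.59, adjusted p = 0.166, and Msln at 0.59, adjusted p = 0.12), and 0 were higher and 1 lower in the Sham cohort. Under median-of-ratios scaling the medians of the mesothelial list turned from -0.02 and -0.27 to 0.34 and 0.08, that of the adventitial list from -0.10 to 0.26 in the PM cohort, and that of the activated fibroblast list from -0.20 to 0.14 in the Sham cohort.

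Transcription factors of the mesenchyme were lower, as Tcf21 was. Of 13, 11 were lower and 0 higher in each cohort. Tbx4, a T-box factor of lung mesenchyme, was at 151 ± 20.7 RPM in Sham and 25.9 ± 11.2 in Sham-OVA (-2.69, SE 0.31, adjusted p = 4.00e-06), and at -2.50 in PM-OVA (adjusted p = 0.000904). The highest, Twist1, was under 1 RPM and did not pass (-0.03, adjusted p = 0.927), although with the trend removed it did (-0.77, adjusted p = 0.0386). Of 12 further small leucine-rich proteoglycans, the family of Dcn and Lum, 10 passed the filter, and 3 of these were higher and 5 lower in each cohort. Ogn, or mimecan, was at 484 ± 68.9 RPM in Sham and 122 ± 58.6 in Sham-OVA (-2.17, adjusted p = 3.35e-05), and Podnl1 was higher (1.51, adjusted p = 5.05e-05). Biglycan (Bgn), the closest relative of decorin, rose by 0.43 in Sham-OVA (adjusted p = 0.0195) and was at 0.18 in PM-OVA (adjusted p = 0.466).

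Partners of the signals and receptors did not move as 1 block. Among the PDGF ligands, Pdgfa, Pdgfb and Pdgfc had log2 fold changes of 0.14, 0.04 and 0.44 in Sham-OVA and did not pass (adjusted p = 0.479, 0.844 and 0.325). Pdgfd, a ligand of Pdgfrb, was lower in both cohorts, with log2 fold changes of -2.45 and -2.72 (adjusted p = 1.05e-05 and 0.000663). Of 10 genes of PDGF ligands and signalling, 6 were lower in each cohort, with 1 higher in Sham-OVA. That gene was the adaptor Grb2 (0.52, adjusted p = 0.0139), which did not pass with the trend removed (0.30, adjusted p = 0.141), and the lowest was the phosphatase Ptpn11 (-4.15, adjusted p = 7.33e-07).

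Of 11 genes of the FGF10 receptor and response, 8 were lower and 1 higher in Sham-OVA, and 7 and 1 in PM-OVA. Fgfr2 was lower in both, with log2 fold changes of -1.15 and -0.998 (adjusted p = 3.11e-05 and 0.00135), and so was Fgf7, another mesenchymal ligand of that receptor, at -2.93 and -2.36 (adjusted p = 0.000754 and 0.00068). Etv4, a factor induced by FGF signalling, was the one that rose, by 1.94 in Sham-OVA from 0.483 to 3.36 RPM (adjusted p = 4.55e-06). Of 16 WNT pathway genes, 10 were lower and 2 higher in each cohort. Wnt2b fell by 3.61, from 8.31 RPM in Sham to 0.245 in Sham-OVA (adjusted p = 1.10e-07), and Axin2, a target of WNT signalling, was at -1.32 (adjusted p = 0.000226) in the Sham cohort and at -1.57 (adjusted p = 0.00113) in the PM cohort. The secreted WNT antagonist Sfrp2 was the highest (1.32, adjusted p = 0.0202). It did not pass with the trend removed (0.90, adjusted p = 0.108), when 0 genes of the list were higher in the Sham cohort and 1 in the PM cohort.

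Among 6 genes of integrin receptors for nephronectin and periostin and their signalling, 4 were lower and 0 higher in each cohort. These were the integrin genes Itga8, Itgav and Itgb1 and the kinase Ptk2, which is no receptor, and with the trend removed 3 and 2 were lower. Itga8, which the alveolar fibroblast list also holds, was at 484 RPM in Sham and 63.7 in Sham-OVA (-3.16, SE 0.39, adjusted p = 6.70e-06), and Itgav was lower by a log2 fold change of -1.15 (adjusted p = 8.83e-05). With the length and GC trend removed Itga8 was at -2.65 and Itgav at -0.45 in the Sham cohort. Itgav did not pass in the PM cohort (-0.24, adjusted p = 0.0562). Itgb3 was the highest at 0.23 (adjusted p = 0.344). Periostin and other genes respond to IL-4 and IL-13 in many cells. Of 9 genes of that response, 8 were tested and 5 were higher and 1 lower in each cohort. Retnla was higher by 9.74 on the log2 scale in the Sham cohort (adjusted p = 9.21e-10). There the receptor chain Il13ra1 fell by 1.06 (adjusted p = 0.000226) and Il4ra was at -0.48 (adjusted p = 0.0555).

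Markers of other cell types moved with the challenge as well. Of 8 leukocyte genes, 5 were higher and 0 lower in each cohort, and their summed level ranged from 537 to 1177 RPM in Sham and from 2011 to 3090 in Sham-OVA, and from 622 to 848 in PM and 1675 to 2516 in PM-OVA. The highest was Cd52 (3.88, adjusted p = 3.57e-08) and the lowest Ptprc (0.08, adjusted p = 0.766). Ptprc was higher with the trend removed in both cohorts (1.10, adjusted p = 0.000846, and 0.92, adjusted p = 0.000241). Neither Ptprc (97.6 RPM or more) nor Cd52 was at 0 in any library. Of 8 epithelial genes, 1 was higher and 3 lower in Sham-OVA and 2 and 3 in PM-OVA, and their sum, most of it Sftpc, ranged from 9860 to 19928 RPM in Sham and from 23505 to 29042 in Sham-OVA, and overlapped between PM (12628 to 24977) and PM-OVA (17259 to 37170 RPM). Sftpc was at 1.19 (adjusted p = 0.00147) and Krt18 at -2.10 (adjusted p = 0.00368) in the Sham cohort. Sftpc did not pass with the trend removed (0.42, adjusted p = 0.151), when 0 epithelial genes were higher and 5 lower in the Sham cohort, and 0 and 4 in the PM cohort. Of 8 endothelial genes, 1 was higher and 5 lower in each cohort, from Tek at -2.15 (adjusted p = 2.14e-05) to Emcn at 1.13 (adjusted p = 4.26e-05). The summed level of the 10 fibroblast genes ranged from 4382 to 6467 RPM in Sham and from 1062 to 3473 in Sham-OVA, and from 4857 to 6337 in PM and 1529 to 4116 in PM-OVA. The part of a larger share of leukocyte RNA in the lower fibroblast levels was not tested.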

How the data were processed

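The 23 lungs (7 Sham, 5 Sham-OVA, 7 PM and 4 PM-OVA) were grouped by the exposure and challenge in their labels. Replicate numbers are those of the sample titles, which for most challenged samples differ from the number in the library name. According to the study's methods, the authors used Trimmomatic for trimming of the single-end reads, Bowtie2 for alignment to GRCm38 and SeqMonk for quantitation. The submitters' processing notes name bcl2fastq and the build mm10. The strand setting of the counting is not given in the sources used here. The values deposited by the authors are RPM. Their table is named after RPKM, but in every library 100% of values equalled a whole number of reads (tolerance 0.05 reads), so reads were recovered. Members and lists were chosen with earlier results of these data known.

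Values were transformed to log2(RPM + 0.5). The 16795 genes with 4 or more libraries at 0.5 RPM or above entered limma (version 3.58.1, R version 4.3.3), with a variance trend and Benjamini-Hochberg adjustment over all of them, in the 2 groups compared, and for the interaction in all 4. Fold changes understate differences of low genes. Ratios of 3 gene pairs were compared by two-sided exact permutation tests, adjusted over 12 tests. Alternatives were pseudocounts of 0.1 and 1, no filter or a mean of at least 1 RPM, TMM, median-of-ratios and quantile scaling, 1 fit over 4 groups, array weights, a replicate block, removal of the trend with length and GC (splines per library, length known for 98.5% of genes), the study's threshold, DESeq2 1.42.0, edgeR 4.0.16 and leaving out each library. Leaving out the 3 shallowest libraries and DESeq2 at the study's threshold were added after seeing the data. On simulated data of 16795 genes the limma fit of Sham-OVA against Sham recovered 200 of 200 changed genes with 7 false calls. For the same comparison DESeq2 and edgeR also recovered 200, with 25 and 6 false calls. With a length trend put in and removed, 200 were recovered with 78 false calls. A case with as many changed genes as were called in the lungs was not tested. Depth ranged from 2298645 to 17393579 reads on genes, where 1 read was worth 0.311 to 0.0502 RPM.

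All members were named, together with the highest and lowest gene of each list in Sham-OVA against Sham and direct partners of the members. The lists were alveolar, adventitial, peribronchial and activated fibroblast, pericyte, smooth muscle, mesothelium, mesenchymal transcription factors, small leucine-rich proteoglycans, PDGF, FGF10, WNT, receptors and signalling of nephronectin and periostin, IL-4 and IL-13, leukocyte, epithelium and endothelium. Lengths and coordinates came from GENCODE (GRCm38). Antisense genes that share exon bases with Pdgfra and Fgf10 averaged at most 0.0691 RPM.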

Additional observations from a re-analysis of the deposited data

Results flagged for a closer look

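Among 52 groups of values (10 genes and 3 ratios in 4 groups), 5 had a lowest or highest library whose gap to the next exceeded Dixon's critical value. Chance gives this in about 1 in 20 groups. In Sham, 4 of them were replicate 3. Its Pdgfra was 346 RPM, where the rest of the group held 544 to 652 RPM, and its Pdgfrb 133 RPM against 176 to 196 RPM. Its Dcn was the highest, at 182 RPM against 77.9 to 113 RPM, and its log2 ratio of Lum to Dcn the lowest, at -4.48 against -3.30 to -2.64. The fifth was Pdgfrb in Sham-OVA replicate 3, at 70.2 RPM against 110 to 126 RPM, in the library with the fewest reads.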

How the results depend on the processing

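Over the alternatives for single genes, 1455 values kept their side of the threshold, 63 lost their call and 11 gained one. Values not called in the main fit were counted in this way even where their sign changed. Dcn in Sham-OVA against Sham (0.03 with the trend removed) was such a value. Among values called in the main fit, 1 reversed, namely Postn in Sham-OVA against Sham (0.0013). That fit was without the trend with length and GC and without the 3 shallowest libraries. The number of the 10 genes called after challenge was 0 by limma in both cohorts at the study's threshold, and 3 (Sham) and 1 (PM) by DESeq2. It was 8 to 10 in both when single libraries were left out, and 0 in the other comparisons in every such fit. The share of all genes called in those fits is not given here. In the main fit 47.5% and 45.2% of all genes were lower after challenge. Array weights gave an interaction for 6 genes. With the trend removed, the ratio of Pdgfra to Pdgfrb differed by -0.10 in Sham-OVA and reversed to 0.075 in PM-OVA, Lum to Dcn differed by 0.60 in PM against Sham (no longer passing) and Fgf10 to Wnt2 by 0.54 in PM-OVA (now passing). Leaving out single libraries gave Lum to Dcn differences of 0.39 to 0.70 in PM against Sham, Pdgfra to Pdgfrb differences of -0.67 to -0.42 in PM-OVA and -0.24 to -0.13 in PM against Sham, and Fgf10 to Wnt2 differences of -0.60 to -0.41 in Sham-OVA, with the call changing in some fits. The cause of these changes was not tested. Deviations of libraries with the same replicate number in their titles had correlations over genes of -0.25 to 0.12 in the comparisons with saline groups. For most challenged samples the number in the library name is another one, and pairing by library name was not tested. Between Sham-OVA and PM-OVA they were 0.60, 0.22 and 0.62 for replicates 1 to 3 and -0.31 for replicate 4. Since not every pair was above 0.1 and the labels give no shared origin, the numbers were not taken to pair the samples. With the number as a replicate block, 8 of the 10 genes were called in each cohort, where 7117 and 5694 of the 16795 genes were called lower. Paired sign-flip tests gave ratio differences of -0.65 (Pdgfra to Pdgfrb, Sham-OVA), -0.45 (PM-OVA), -1.74 (Lum to Dcn, Sham-OVA), -2.54 (PM-OVA) and 0.61 (PM against Sham), none passing. The smallest two-sided p of such a test is 0.0625 with 5 pairs and 0.125 with 4. Lum is limited by depth, since 1 read was worth 0.311 RPM in Sham-OVA replicate 3.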
